A study of Mus musculus with 1 sample.

Results

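Genes named Zfp followed by a number are annotated mouse zinc finger protein genes, most of them coding for DNA-binding proteins built from repeated C2H2 fingers. The annotation (GENCODE vM21, GRCm38) lists 365 protein-coding genes with such a name. Zfp36, Zfp42, Zfp57, Zfp980 and Zfp987 were set aside, which left 360. A transcript was seen for 309 of them in wild-type mouse epiblast-like cells, and 137 had at least 10 transcripts, of 6754 nuclear protein-coding genes with that many. The choice by name used no tail value, although the names set aside were chosen with earlier results of these data known. Another 172 had 1 to 9 transcripts and 51 had none among the reads analysed here. The 172 together held 727 transcripts, with a median tail of 78 nt, of which 9.90% had 1 to 5 nt. At the limit itself, gene tails had a median of 79.2 nt over the 13 genes with 9 transcripts and of 72.4 nt over the 8 genes with 10.

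Poly(A) tails were measured by PAIso-seq, which copies whole transcripts with their tails and reads each molecule in repeated passes on the PacBio platform. The cells were wild-type ICR embryonic stem cells (ESCs) at 24 h of differentiation into epiblast-like cells (24h-EpiLCs), grown with activin A and bFGF. There was 1 group and 1 sample, which held 2 replicates marked by barcodes, and the labels do not say whether they came from separate cultures. Cells without Cnot8 were not analysed here. Marker genes chosen for the labelled cell type were detected. All 7 genes of the epiblast-like list were detected, with 1110 transcripts, whereas 2 transcripts came from 1 of 4 fibroblast genes (Col1a1, Col1a2 and Col3a1 were at 0) and 1 transcript from 1 of 3 endoderm genes. Of the naïve list, 6 of 6 genes gave 568 transcripts, 501 of them from Zfp42. The epiblast-like sum includes Pou5f1 (303) and Sox2 (85), which the paper also counts as core factors of ESCs. The sums therefore do not tell epiblast-like from naïve cells. Reads with at least 7 passes and a gene numbered 301536 in replicate 1 and 502001 in replicate 2. The tested Zfp genes took 1939 and 4008 of them, with a median of 22 transcripts per gene, compared with 37 for the other 6613 genes. In a bulk culture, fewer cells with a transcript and fewer copies per cell cannot be told apart. With 2 replicates, no exact permutation test can pass a threshold, so differences are given in each replicate, with their mean and SD, and no p-value.

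A poly(A) tail is added to an mRNA in the nucleus, bound by poly(A)-binding proteins in the cytoplasm and shortened by deadenylases, of which the Ccr4-Not complex is the main one. A tail worn down to a few bases no longer holds poly(A)-binding protein, and short tails are often marked by uridines at the end, which appear as T in cDNA. Many zinc finger proteins also carry a KRAB domain, which recruits the corepressor Trim28 and, through it, the histone methyltransferase Setdb1 and HP1 proteins, and many of these silence retroelements in early embryonic cells.

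The letters of single tails show what was read. The set below gives, 5′ to 3′, the T-ended tail of 12 to 30 nt with the most passes from each of 6 genes, taken from those with at least 6 T-ended tails. Zfp532, Zfp850 and Zfp990 also had at least 6 but are not shown. The T bases at the end are in capitals.
Zfp207: aaaaaaaaaaaaaaaaaaaaaaaaT
Zfp217: aaaaaaaaaaaTT
Zfp936: aaaaaaaaaaaaaaaaaaaaaT
Zfp979: aaaaaaaaaTTT
Zfp451: aaaaaaaaaaaaaaaaaaaT
Zfp638: aaaaaaaaaaaaaaaTT
Tails of this kind were 166 of the 904 tails of 6 to 30 nt, and were spread over 69 genes. They ended in 1 T in 72 cases, in 2 in 86 and in 3 in 8.

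Gene tail length, the geometric mean over the transcripts of a gene, was lower for Zfp genes than for other genes. The median over the 137 genes was 59.4 nt (quartiles 45.9 and 73.4 nt), whereas that of the 6613 other protein-coding genes was 75.9 nt. In replicate 1 the Zfp median was 65.8 nt over the 56 genes with at least 10 transcripts there, compared with 77.3 nt for the others. In replicate 2 it was 55.1 nt over 103 genes, compared with 76.1 nt. Both replicates thus placed the Zfp median below that of the other genes. The Zfp median minus that of the others came to −11.6 nt in replicate 1, then −21.0 nt in the other (mean −16.3 nt ± 6.70, SD, n = 2). A gene tail under 75 nt, the boundary that the study draws between shorter and longer tails, was found for 105 of 137 Zfp genes, and for 49.0% of all tested genes. Where a gene reached 10 transcripts in both replicates, 34 of 52 Zfp genes were under 75 nt in each, against a background of 29.3%.

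The split by KRAB domain, sought as a fixed pattern of the A box in each translated protein, divided the genes almost evenly. Gene tails of the 69 genes with a match had a median of 50.9 nt (quartiles 35.5 and 65.5 nt), and those of the 68 without one 66.4 nt (quartiles 54.4 and 78.8 nt). In replicate 1 the medians were 60.9 nt over 24 genes and 71.0 nt over 32. In replicate 2 they were 50.3 nt over 52 genes and 59.5 nt over 51. The KRAB genes were lower in each, by −10.1 and −9.18 nt (mean −9.63 nt ± 0.635, SD, n = 2). The replicates tested different sets of genes, so this SD does not measure how well the difference is known. Each class median also shifted between replicates, from 60.9 to 50.3 nt and from 71.0 to 59.5 nt. Over the larger number of genes tested in the pooled data the difference was −15.5 nt. Pooled, KRAB genes lay −24.9 nt from the other protein-coding genes and the remaining Zfp genes −9.46 nt. Of the KRAB genes, 61 of 69 were under 75 nt, compared with 44 of 68 without a match and a background of 49.0%. Where both replicates had 10 or more transcripts, the counts under 75 nt in both were 20 of 23 and 14 of 29, against a background of 29.3%. A KRAB domain of another form would be missed by the pattern.

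**Figure D1:**
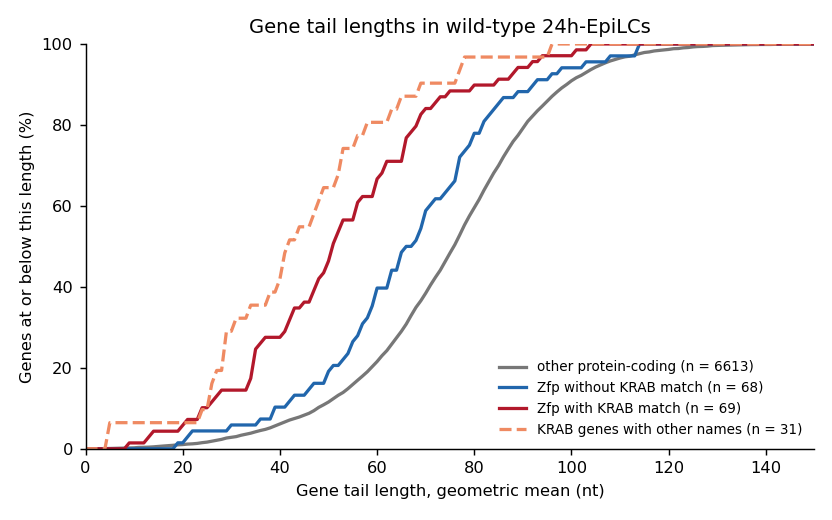
Share of genes (%) at or below each gene tail length (nt, geometric mean over the transcripts of both replicates) for 69 Zfp genes with a KRAB match, 68 without one, 31 KRAB genes with other names and 6613 other protein-coding genes. The curve of Zfp genes without a match lies between those of the KRAB genes and of the other genes over most of the range, with medians of 66.4, 50.9 and 75.9 nt.

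The names are a matter of nomenclature, so genes of the same make-up with other names were set beside them. Of these, 31 had a KRAB match, with a median gene tail of 41.9 nt. Their replicate medians were far apart, 64.1 nt over 11 genes and 36.5 nt over 25. A further 68 genes had at least 3 fingers, no KRAB match and another name, with a median of 59.3 nt (59.4 and 63.4 nt in the replicates). Both kinds were below the other protein-coding genes in each replicate, by −13.2 and −39.6 nt for the former and by −17.9 and −12.7 nt for the latter. Outside the Zfp names, KRAB genes were thus lower than finger genes without KRAB in replicate 2 but not in replicate 1, where the difference was 4.69 nt.

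The number of fingers moved with gene tail length. Genes with 0 to 3 C2H2 fingers had a median of 72.3 nt (22 genes), those with 4 to 9 had 65.5 nt (41 genes), those with 10 to 13 had 52.5 nt (39 genes), and those with 14 or more had 51.3 nt (35 genes). Across the 137 genes, Spearman's rho between fingers and gene tail was −0.33 and Pearson's r on the log2 scale was −0.22, as a description, since the genes share libraries and many are relatives. KRAB genes hold more fingers, with a median of 12 compared with 7. Within the KRAB genes rho was −0.04 (r = 0.21, n = 69) and within the others −0.38 (r = −0.32, n = 68), so the relation was seen among the genes without a match.

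Annotated transcript length was also examined, because among the other protein-coding genes longer transcripts had shorter gene tails (rho = −0.36, r = −0.36, n = 6613). Over the 137 Zfp genes rho was 0.0044 (r = 0.0063), but the classes differed. Zfp genes without KRAB had rho = −0.26 (r = −0.31, n = 68), and KRAB genes had rho = −0.02 (r = 0.09, n = 69). The other genes were divided into 5 equal classes by longest annotated transcript, and Zfp genes were placed in them. The Zfp median was below that of the other genes in each class, by −24.2, −22.8, −8.85, −12.3 and −6.59 nt from the shortest to the longest. For KRAB genes the differences were −35.3, −26.5, −32.4, −21.0 and −5.83 nt, over 7 to 23 genes. For Zfp genes without KRAB they were −16.4, −12.9, 0.19, −2.75 and −7.05 nt, over 3 to 23 genes. The class from 5164 nt was thus the one in which KRAB genes came closest to the rest. In 5 classes of transcript number the Zfp difference ranged from −20.0 to −12.1 nt, with no order along them.

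**Figure D2:**
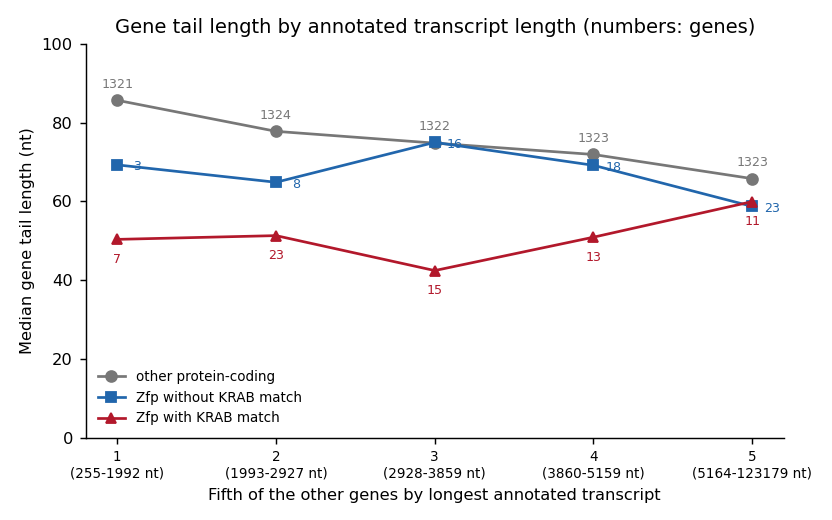
Median gene tail length (nt) of other protein-coding genes, Zfp genes without a KRAB match and Zfp genes with one, in 5 equal classes of the other genes by longest annotated transcript (nt), with the number of genes at each point. The KRAB medians stay between 42.4 and 59.96 nt, while the other genes go from 85.7 nt in the shortest class to 65.8 nt in the longest.

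Single transcripts show where in the length range the genes differed. Zfp transcripts had median tails of 77 nt (replicate 1) and 75 nt (replicate 2), whereas other genes had 91 nt in both. Zfp transcripts had fewer tails over 90 nt, 42.8% and 40.9% in the replicates, compared with 50.2% in both for other genes. Tails of 6 to 30 nt took 16.2% and 14.7% of Zfp transcripts, compared with 9.19% and 8.61%, a difference of 6.57 points ± 0.683 (SD, n = 2). KRAB transcripts had the larger share of tails of 6 to 30 nt, 20.3% and 17.7%, and the remaining Zfp transcripts had 12.6% and 12.4%. Of the KRAB transcripts, 46.9% came from 12 genes of 1 cluster on chromosome 4, whose reads are uncertain, as described below. The 6 to 30 nt share without that cluster was not calculated. The difference between Zfp and other transcripts was not carried by the shortest tails alone. With tails of 1 to 5 nt left out, the geometric mean over Zfp transcripts was 69.1 and 69.3 nt in the replicates, compared with 80.9 and 81.5 nt for other genes, and it was 63.6 and 62.9 nt for KRAB genes and 74.4 nt in both for the other Zfp genes. At the long end the groups were alike, with 2.37% of Zfp tails and 2.36% of other tails over 200 nt. The median number of passes was 32 for Zfp and 34 for other transcripts. The pooled difference in median gene tail was −15.9 nt with no pass filter and −18.0 nt with at least 15 passes, in place of −16.4 nt. The part of passes in the shares of tails over 90 nt and of 6 to 30 nt was not tested.

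**Figure D3:**
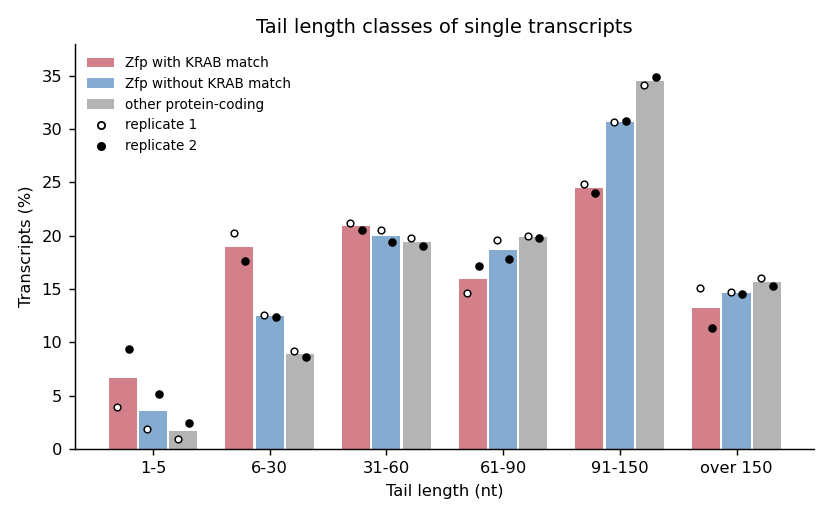
Share of transcripts (%) in 6 classes of tail length (nt) for Zfp genes with a KRAB match, Zfp genes without one and other protein-coding genes; bars are the mean of the 2 replicates, open points replicate 1 and filled points replicate 2. Of the 3 groups, KRAB transcripts have the largest share at 6 to 30 nt, 20.3% and 17.7%, and the smallest at 91 to 150 nt, and the 1 to 5 nt class is higher in replicate 2 in all 3 groups.

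Tails of 1 to 5 nt made up 2.84% of Zfp transcripts in replicate 1 (95% Wilson interval 2.19% to 3.67%) and 6.99% in replicate 2 (6.24% to 7.82%). For other genes the shares were 0.885% and 2.40%. The Zfp share was higher in both replicates, by 1.95 and 4.59 points (mean 3.27 ± 1.87, SD, n = 2), and replicate 2 held more such tails in both sets of genes. KRAB genes had 3.88% and 9.35%, and the remaining Zfp genes 1.88% and 5.17%. A share of at least 10% was reached by 28 of 137 Zfp genes, against a background of 8.54%. These were 22 of the 69 KRAB genes and 6 of the 68 without a match, the latter a share near the background. The count depends on depth, since 1 such tail suffices in a gene with 10 transcripts. Zfp genes had a median of 22 transcripts and other genes 37. The intervals cover counting error only, since the reads carry no molecular identifiers.

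The 335 tails of 1 to 5 nt came from 71 genes, and 66 genes had none. Genes with at least 1 such tail were thus 51.8% of the Zfp genes, near the 44.4% of all tested genes. A single A was the commonest form, at 52.2% of the 335 tails. Per the methods, sequences whose opening 8 bases held fewer than 4 A were removed, a condition that tails of 1 to 3 nt cannot meet, yet 282 of the 335 had that length. They are kept here as the table gives them. From tails of at least 6 nt alone, the median gene tail was still −12.5 nt from that of other genes. The 10 genes with the most held 46.3%, and without these 10 the pooled share over the remaining genes was 3.80% in place of 5.63%. Bases other than A were rare, with 91.6% of the 335 made of A alone, compared with 97.2% in other genes and 87.4% in KRAB genes. Zfp982 and Zfp958 held 17 of the 25 KRAB tails with another base, and without these 2 genes the KRAB share was 95.3%. Within a gene the same short tail often recurred. Zfp982 had 9 tails that read A and then T among its 18 of 1 to 5 nt, all 9 in replicate 2, and Zfp260 had 7 tails of 4 A, its whole count, also all in replicate 2. Whether repeats are copies of 1 molecule or separate molecules with the same tail was not tested.

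Among genes with at least 30 transcripts, 6 had the highest shares of very short tails. Zfp978, a KRAB gene, had the shortest gene tail of all 137, 8.96 nt (12.8 nt over 10 and 7.84 nt over 27 transcripts in the replicates). Of its 37 transcripts, 51.4% had 1 to 5 nt (95% Wilson interval 35.9% to 66.6%), 40.0% and 55.6% in the replicates, and its tails of a single A numbered 15, all in replicate 2. Both replicates gave a short gene tail, although 24.3% of its transcripts were over 90 nt. Zfp958 had 27.3% (20.0% and 28.6% in the replicates, 5 and 28 transcripts), and 5 of its 9 short tails read T followed by 4 A. Zfp292, a large protein with 15 fingers, had 23.5% (14.3% and 25.9%). Zfp981, which had the same pooled share of 23.5%, had 11.1% and 28%. The next of these was Zfp982, with 22.0% (6.67% and 30.8%) and gene tails of 71.9 nt in replicate 1 and 23.1 nt in replicate 2. Zfp652 had 14.3%, all of it from replicate 2 (0 of 14 and 23.8% of 21 transcripts). For Zfp982 and Zfp652 the replicates were far apart, and the short tails lay mostly or wholly in replicate 2. Reads of Zfp978, Zfp981 and Zfp982 are uncertain, since 84.8%, 60.9% and 31.3% of their 31-base words also occur in transcripts of another gene. The transcript with the longest coding sequence of Zfp978 has an annotated 3′ UTR of 0 nt.

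The 8 genes with the most transcripts were not all alike between replicates. Zfp207, a spindle and splicing factor, gave 518 transcripts and a gene tail of 75.5 nt (72.6 and 76.6 nt in replicates 1 and 2), close to the median of other genes, with 0.772% of its tails at 1 to 5 nt. Zfp706, a small protein with a role in the exit from naïve pluripotency, had 78.0 nt over 253 transcripts (80.6 and 76.8 nt). In both genes the replicates lay close together. Zfp622, a factor of the large ribosomal subunit, had 68.3 nt over 173 (76.7 and 65.0 nt). KRAB genes of chromosome 4 made up 3 of the 8. Zfp979 had 51.1 nt over 308 transcripts (55.7 and 47.8 nt). Zfp985 had 60.4 nt over 267 (60.9 and 60.03 nt). Zfp990, the third of them, had 35.5 nt over 195 transcripts (56.0 and 28.1 nt), and 10.3% of its tails had 1 to 5 nt. The last pair bind RNA. Zfp106 had 50.3 nt over 236 transcripts (71.5 and 44.0 nt), and Zfp638, which also acts in the silencing of retroviral DNA, had 56.6 nt over 165 (77.3 and 52.0 nt). In both genes the median transcript was long, 85.5 and 91 nt, and the replicate with the lower geometric mean had more tails of 1 to 5 nt, with 1.54% in replicate 1 and 17.0% in replicate 2 for Zfp106, and 2.86% and 10.8% for Zfp638.

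In 30 genes each replicate held 15 or more transcripts, and the order from short to long could be read in both. The shortest 6 were Zfp988 (34.3 nt; 46.4 and 26.2 nt in the replicates), Zfp982, Zfp990, Zfp229 (41.9 nt; 58.2 and 33.2 nt), Zfp936 (42.4 nt; 53.9 and 36.7 nt) and Zfp281 (42.8 nt; 55.04 and 39.5 nt). All but Zfp281, a transcription factor of the naïve-to-primed transition, have a KRAB match. All 6 were below 75 nt in each replicate, where the background is 29.3% from a minimum of 10 transcripts per replicate. The 6 were chosen as the shortest of the 30, which favours such values, so no conclusion is drawn from this count. All 6 were also lower in replicate 2, as were 21 of the 30 genes. The longest 6 were Zfp664 (92.8 nt; 104 and 84.9 nt), Zfp91 (85.9 nt; 79.8 and 90.8 nt), Zfp330 (84.6 nt; 78.6 and 87.0 nt), Zfp740 (83.2 nt; 86.1 and 80.6 nt), Zfp706 and Zfp64 (76.3 nt; 62.2 and 102 nt). None of these 6 has a KRAB match, and neighbours in either order differ by less than the replicates of at least 1 of the pair. Of the 30 genes, 21 were under the median of other genes in both replicates, against a background of 33.5% of 3013 genes of this depth, and 5 were above it in both, against 36.6%. Of the 15 KRAB genes among them, 14 were under it in both. The median absolute difference between replicates was 13.7 nt, with 21 genes lower in replicate 2 and 9 lower in replicate 1. Across the 30 genes the replicates had a Spearman's rho of 0.55 (Pearson's r on the log2 scale 0.44), and across 2979 other genes with the same depth 0.56 (0.56).

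**Figure D4:**
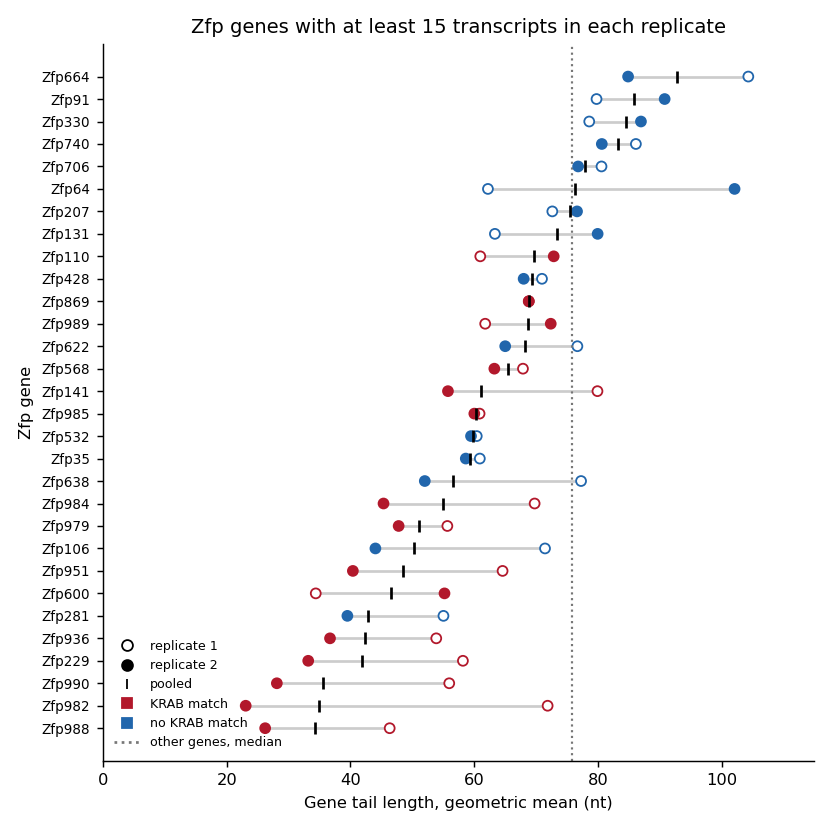
Gene tail length (nt, geometric mean) of the 30 Zfp genes that had 15 or more transcripts in both replicates; open points are replicate 1, filled points replicate 2, ticks the pooled value, red genes have a KRAB match, and the dotted line is the median of other protein-coding genes, 75.9 nt. Of the 15 KRAB genes, 14 have both points left of the line.

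Genes with known roles were grouped in 3 lists. Of 8 genes tied to pluripotency or the exit from it, 7 were tested, with a median gene tail of 54.1 nt. Of these, 6 lay under the median of other genes and 5 under 75 nt, where the background is 49.0%. The shortest was Zfp217, a transcriptional regulator that also limits m6A marking of mRNA, with 38.3 nt (51.3 and 34.6 nt from 12 and 34 transcripts). Zfp462, a chromatin-bound protein with 33 fingers, had 53.9 nt (55.3 and 53.4 nt from 12 and 34). Zfp296 had 54.1 nt from 13 transcripts (35.1 and 71.0 nt), which is too few to place it. Zfp143, a promoter-binding factor, had 68.8 nt (66.3 and 69.7 nt from 9 and 25). The list thus ran from Zfp217 to Zfp706, and Zfp521 was not seen among the reads analysed here.

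Of 5 genes that silence retroelements or imprinted promoters, 4 were tested, all KRAB genes, and all 4 were under 75 nt in the pooled data, where the background is 49.0%. Zfp568, which represses the placental promoter of Igf2, had 65.4 nt over 57 transcripts (67.9 and 63.3 nt). Zfp809, which binds the primer binding site of murine leukaemia virus, had 50.4 nt over 13 (57.2 and 47.6 nt), and Zfp819 had 52.2 nt over 19 (45.2 and 55.002 nt). Zfp932 had 59.4 nt over 15, with 18.9 nt over 3 in replicate 1 and 79.1 nt over 12 in replicate 2, so its deeper replicate lay above the boundary. Zfp708 was not seen.

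The 9 genes with roles in RNA, ribosome, ubiquitin or SUMO pathways had a longer pooled median than the lists above, but the ranges overlapped. Gene tails ran from 50.3 to 97.2 nt here, from 38.3 to 78.0 nt for pluripotency and from 50.4 to 65.4 nt for silencing. The lists were not compared within replicates, so no order is drawn from them. Their median was 69.2 nt over 8 tested genes, still under the 75.9 nt of other genes. Of these 8, 5 were under 75 nt, where the background is 49.0%. Zfp598, the ubiquitin ligase that marks collided ribosomes, had 97.2 nt over 22 transcripts (70.1 and 117 nt). Zfp830, a splicing factor, had 81.8 nt over 40 (91.3 and 78.0 nt). Zfp91, a ubiquitin ligase, is given above. Zfp451, a SUMO ligase, had 57.2 nt over 73 transcripts, with 102 nt over the 14 of replicate 1 and 49.9 nt over the 59 of replicate 2, so its replicates lay on opposite sides of the boundary. Zfp326 had 70.1 nt over 11, and Zfp346 had 7 transcripts and was not tested. The corepressors that KRAB proteins recruit were not uniformly short. Over 8 tested genes of that list of 9, which are no Zfp genes, the median was 80.7 nt. Trim28 had 76.4 nt over 1678 transcripts (74.1 and 78.5 nt) and Setdb1 had 42.7 nt over 71 (33.9 and 49.3 nt).

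Zfp genes lie in clusters of related genes, and 60 of the 137 fell into 12 clusters of at least 3 with gaps of up to 1 Mb. KRAB genes made up 46 of the 60. In 10 of the 12 clusters the median gene tail was under that of other genes. The largest lay on chromosome 4 (GRCm38, 145510759 to 147809788) and held 12 KRAB genes with 1253 transcripts. Their gene tails had a median of 41.0 nt (8.96 to 87.6 nt), and 11 of 12 were under the median of other genes. Tails of 1 to 5 nt made up 4.17% of these transcripts in replicate 1 and 11.5% in replicate 2, or 109 of the 335 such tails. The longest was Zfp992, with 87.6 nt from 19 transcripts (74.8 and 96.1 nt), and its neighbour Zfp981 had 19.9 nt from 34 (52.2 and 14.1 nt). The cluster thus held both short- and long-tailed genes.

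**Figure D5:**
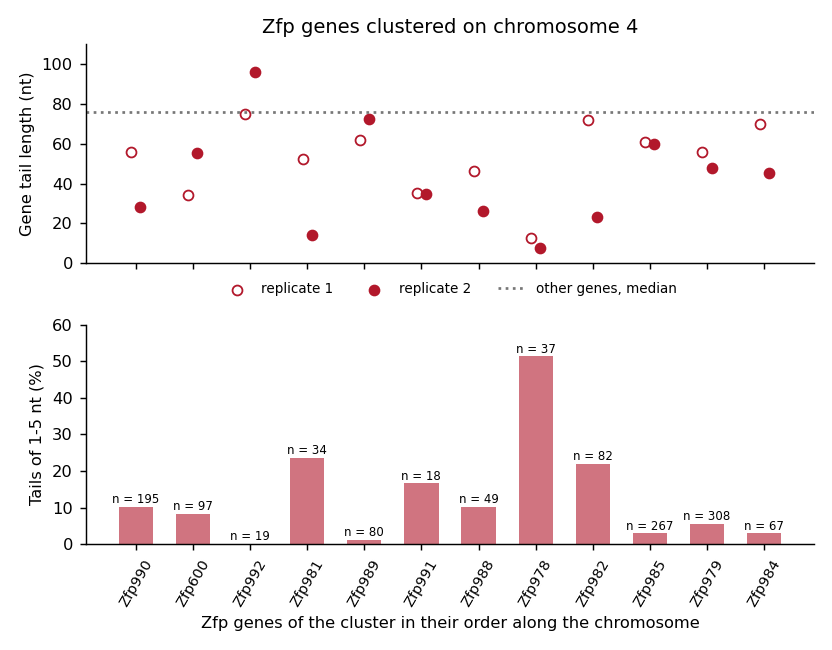
The 12 Zfp genes of the chromosome 4 cluster in their order along the chromosome, with gene tail length (nt) in replicate 1 (open) and replicate 2 (filled) above and the share of tails of 1 to 5 nt (%, both replicates pooled, with the number of transcripts) below. In 11 genes the pooled gene tail is under 75.9 nt, the median of other genes, and Zfp978 has the largest share of short tails, 51.4%.

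Reads of these genes are uncertain, because 31.3% to 92.7% (median 67.2%) of the 31-base words of their longest transcripts also occur in transcripts of another gene, and the counting could have placed reads of relatives on the wrong gene. Without them the KRAB genes had similar medians. Off chromosome 4, gene tails had a median of 51.3 nt over 57 KRAB genes and of 67.3 nt over 65 Zfp genes without a match. Among the 103 genes with at most 10% shared words, the medians were 50.9 nt (39 genes) and 65.2 nt (64 genes). KRAB genes outside any cluster had 50.4 nt (23 genes), and inside one 51.6 nt (46 genes).

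Other clusters went in different directions. On chromosome 17, 6 KRAB genes between 21423227 and 21909926 (Zfp54, Zfp51, Zfp53, Zfp948, Zfp229 and Zfp995) had a median of 44.0 nt (20.7 to 50.2 nt over 128 transcripts). On the same chromosome, 4 KRAB genes between 32815449 and 33033402 had a median of 89.7 nt. These were Zfp799 with 91.1 nt, Zfp870 with 88.3 nt, Zfp472 with 74.9 nt and Zfp763 with 101 nt, from 10 to 22 transcripts each. None of their 62 transcripts had 1 to 5 nt, with a 95% Wilson upper limit of 5.83%. Over all KRAB genes the share was 7.45% pooled, and 3.88% and 9.35% in the replicates. The limit covers counting error only, and the cluster was named after its values were seen, so no difference is drawn from it. On chromosome 13, 5 genes between 67405709 and 67792512 had a median of 50.0 nt. The 2 chromosome 17 groups do not overlap in pooled gene tail, but they do in replicate 1, where Zfp53 of the former had 83.1 nt from 2 transcripts and Zfp799 of the latter 66.6 nt from 5.

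The last base of tails of 6 to 30 nt was examined because T there can mark uridylation. Among Zfp transcripts 24.8% of 315 such tails ended in T in replicate 1 (95% Wilson interval 20.3% to 29.8%) and 14.9% of 589 in replicate 2 (12.3% to 18.05%), compared with 18.7% and 13.8% in other genes. The difference, 6.09 and 1.11 points (mean 3.60 ± 3.52, SD, n = 2), was about the size of the spread between replicates. Within the Zfp genes the T-ended share was lower for KRAB genes, 21.8% and 11.7%, than for the remaining genes, 29.1% and 18.5%, a difference of −7.07 points ± 0.359 (SD, n = 2). The KRAB transcripts, with the most tails of 6 to 30 nt, thus had the smaller part of them ending in T, although the intervals of the 2 groups overlapped in each replicate. The chromosome 4 cluster held 46.9% of KRAB transcripts, and the T-ended share without it was not calculated. Compared with other protein-coding genes, the KRAB share was higher in replicate 1 and lower in replicate 2. The share of Zfp genes without a match was higher in both. The genes whose T-ended tails are printed above varied. Tails of 6 to 30 nt ended in T in 8 of 13 cases for Zfp217, 8 of 20 for Zfp936 and 6 of 13 for Zfp451. The counts were 6 of 22 for Zfp638, 11 of 51 for Zfp207 and 7 of 70 for Zfp979. Tails with any base other than A made up 14.2% and 10.5% of Zfp transcripts, compared with 12.4% and 9.76% of others.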

How the data were processed

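PAIso-seq of 1 wild-type sample with 2 barcoded replicates was analysed. Per the labels and methods, the authors made circular consensus reads, mapped them to mm10 with minimap2 2.17 (transcript strand forward, no secondary alignments), took the soft-clipped 3′ bases as the tail, filtered them for at least 4 A in the first 8 bases, extended them into adjoining A tracts and assigned genes with featureCounts 2.0.1. The deposited table gives, per read, the barcode, gene, passes, base counts and tail sequence, with no normalization. Which barcode is which replicate is not labelled, so replicates are numbered by barcode. The strand setting of featureCounts is not given in the sources used here.

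Tail length was the number of bases of the tail, in reads with at least 7 passes. Gene tail length was the geometric mean, for genes with at least 10 transcripts. Of 12842 gene identifiers, 12835 were in GENCODE vM21. No protein table was used. A script translated the longest coding sequence of each gene, sought the KRAB A-box pattern D[VILM]x[VILAM]x[FL]xxxEWxx[LM], and counted C2H2 fingers by cysteine and histidine spacing. Named genes were the 8 with the most transcripts, the 6 longest and 6 shortest with 15 or more in each replicate, the 6 with the highest share of 1 to 5 nt tails among those with at least 30 transcripts, and role lists; other genes, in clusters or with repeated short tails, were named after their values were seen. Members and lists were chosen with earlier results of these data known. The scripts were tested on simulated tails. Software comprised pandas 2.3.3 and numpy 2.4.6 under Python 3.11.15, with intervals from scipy 1.17.1 and plots by matplotlib 3.10.9.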

Additional observations from a re-analysis of the deposited data

How the results depend on the processing

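No result reversed in the 67 recalculations, of which 51 moved a value by less than the SD of the replicates and 16 by more. This count does not measure robustness. The SD comes from the same 2 replicates, so the settings without 1 replicate are not independent of it. For the KRAB difference the SD was 0.635 nt, so small shifts counted as moves. Counting identical tails of 1 to 5 nt once took the Zfp share of such tails from 5.63% to 2.37%, which stayed among the 51. The median gene tail of Zfp genes was 68.2 nt from tails of at least 6 nt and 74.0 nt when the median of a gene's transcripts replaced the geometric mean. The difference from other genes was −24.2, −8.85 and −6.59 nt in the shortest, middle and longest of 5 classes of annotated transcript length. The KRAB difference was −13.7 nt with at least 15 passes, −13.1 nt from tails of at least 6 nt, −19.0 nt with medians per gene, −17.3 nt with at least 20 transcripts, −13.3 nt with at least 10 in each replicate, −14.3 nt for genes with a finger pattern and, among alternatives chosen after seeing the data, −14.3 nt for genes with at most 10% shared words and −14.8 nt with identical tails of 1 to 5 nt counted once. That last setting gave a difference in the share of such tails of 1.52 points, in place of 3.77, but it limits how many a gene can have whatever its depth, so it does not show the size of the difference. Without 1 replicate, the KRAB difference ranged from −10.1 to −9.18 nt, both nearer 0 than the pooled −15.5 nt, and the cause was not tested. No paired analysis was possible because the data hold 1 group. Depth limits most genes, as 81 of 137 had fewer than 30 transcripts.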
